A study of Mus musculus with 6 samples.

Results

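Integrins and laminins are the 2 sides of a cell's contact with its matrix. This report describes their RNA in mouse bone marrow-derived mesenchymal stromal cells (MSCs), the plastic-adherent stromal cells of the marrow. The genes were chosen by name alone, as every integrin alpha, integrin beta, laminin alpha, beta or gamma chain in the count table. This gave 37 of 23420 genes, of which 25 reached at least 10 counts in at least 3 libraries (17 integrin and 8 laminin chains).

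The series holds 6 polyA RNA-seq libraries, 3 for each of 2 labels. MSCs of both labels came from the marrow of female C57BL/6 mice. Control MSCs (Ctl MSC) had been transduced with an empty AP2 retroviral construct that carries eGFP. MSC-TPr had been transduced with an AP2 construct for the thymoproteasome subunits β1i, β2i and β5t, encoded by Psmb9, Psmb10 and Psmb11. Both groups were grown in AMEM with serum and antibiotics. No source used here gave the libraries of a label as separate cultures or animals, so p-values measure only the spread between these libraries, which may be technical.

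Integrins are cell surface receptors made of 1 alpha and 1 beta chain. The alpha chain largely sets the ligand, and the beta tail binds talin and kindlin, which link the receptor to actin. Laminins are secreted trimers of 1 alpha, 1 beta and 1 gamma chain that build basement membranes, and cells bind them mainly through the integrins that contain the alpha3, alpha6 or alpha7 chain. Stromal cells of the marrow are known to use integrins with the beta1 chain to hold fibronectin, and perivascular marrow cells lay down laminins.

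The libraries did not fall by label alone. Each held between 16158756 and 22158887 counts on genes. Of the transduced subunits, Psmb11 had between 1 and 6 counts in every library, and Psmb9 was highest in a control library, at 3.38, 0.801 and 0.827 CPM in Ctl MSC 1, 2 and 3 against 0.554, 1.24 and 1.21 in MSC-TPr 1, 2 and 3. CPM are counts per 1000000, on library sizes scaled by edgeR's TMM method. Psmb10 was highest in the same control library, at 27.8, 8.81 and 8.38 CPM against 8.97, 17.3 and 15.2. RNA of these genes thus did not follow the labels. Psmb9 and Psmb10 were also counted in the control libraries, so their totals do not isolate transduced RNA. Groups are named here as the libraries labelled Ctl MSC or MSC-TPr. Cell division RNA, averaged as log2 CPM over 30 genes, was 6.43, 3.22 and 3.19 in the libraries labelled Ctl MSC and 3.24, 6.35 and 6.39 in those labelled MSC-TPr, so Ctl MSC 1 stood with MSC-TPr 2 and 3. The fold changes and calls were therefore also computed without the libraries numbered 1. That comparison sets Ctl MSC 2 and 3, low in cell division RNA, against MSC-TPr 2 and 3, high in it, so label and cell division cannot be told apart there. The libraries numbered 1 were doubted because of earlier results of these data. Whether their labels were exchanged, which would change every value given between the labels, was not tested. In bulk RNA, fewer cells of a type and less RNA per cell cannot be told apart either.

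Stromal markers were detected in all 6 libraries, apart from Thy1. Of 10 MSC markers, 9 were tested and Thy1 had at most 1 count in any library, and their summed level was 1213 to 3328 CPM in libraries labelled Ctl MSC and 765 to 1964 in those labelled MSC-TPr. Nt5e, the ectonucleotidase CD73, was 11.4, 20.2 and 17.4 against 2.66, 4.20 and 5.24 CPM, without overlap (log2 fold change −2.02, adjusted p = 0.0790). Of 10 haematopoietic markers 8 had under 10 counts in every library, Laptm5, Cd52 and Emr1 were at 0, and the sum of 3.08 to 10.2 CPM against 1.95 to 14.5 included the lysosomal gene Cd68 at 0.789 to 14.2 CPM. The sums were 2.48 to 4.59 against 4.08 to 4.76 CPM for 9 endothelial markers, 2.26 to 3.58 against 1.42 to 1.88 for 8 megakaryocyte and platelet markers, and 0.772 to 1.28 against 1.22 to 2.66 for 8 epithelial markers. They were 7.23 to 10.2 against 7.22 to 8.07 CPM for 6 Schwann cell markers, and 61.1 to 126 against 26.6 to 58.6 for 7 osteoclast markers, nearly all of it the protease Ctsk. No gene of these lists, and none of the cell division list, was called by edgeR over all 6 libraries without a covariate, and 1 MSC, 1 osteoclast and 1 Schwann cell marker had an unadjusted p under 0.05. The part that other cell types had in any result was not tested.

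The stretches upstream of 3 integrin starts are shown because Itga5 and Itgav were highest in the same 3 libraries while Itgb7 was higher in the libraries labelled Ctl MSC. Each runs 5′ to 3′ on the gene's strand over the 250 bases before the RefSeq transcript start in GRCm38.p6. They lie at chr15:103366792-103367041 on the minus strand for Itga5, chr2:83724147-83724396 on the plus strand for Itgav and chr15:102231936-102232185 on the minus strand for Itgb7. Capitals mark a GC box, GGGCGG on either strand.
Itga5: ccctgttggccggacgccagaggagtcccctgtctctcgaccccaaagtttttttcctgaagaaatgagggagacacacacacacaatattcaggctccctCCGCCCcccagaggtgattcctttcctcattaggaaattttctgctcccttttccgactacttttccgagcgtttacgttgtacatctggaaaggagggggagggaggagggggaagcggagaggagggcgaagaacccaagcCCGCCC
Itgav: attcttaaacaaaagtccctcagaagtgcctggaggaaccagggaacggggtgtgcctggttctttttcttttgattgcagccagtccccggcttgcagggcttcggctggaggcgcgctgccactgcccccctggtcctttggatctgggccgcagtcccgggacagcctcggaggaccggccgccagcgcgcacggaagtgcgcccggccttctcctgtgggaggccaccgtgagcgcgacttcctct
Itgb7: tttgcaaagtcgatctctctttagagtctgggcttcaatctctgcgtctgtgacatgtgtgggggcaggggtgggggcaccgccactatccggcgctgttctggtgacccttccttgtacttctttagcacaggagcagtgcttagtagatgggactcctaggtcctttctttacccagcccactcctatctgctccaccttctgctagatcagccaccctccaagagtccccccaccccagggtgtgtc
Itga5 held 2 GC boxes, beginning 149 and 6 bases before the start, and the other two windows held none. A GC box was found in 32.7% of 32851 promoter windows of the same length. The TATA box TATAAA (12.4% of windows), the AP-1 motif TGANTCA (6.75%) and the E-box CACGTG (6.02%), searched on both strands, were in none of the 3. G and C made up 55.6% of the Itga5 window, 64.4% of that of Itgav and 56% of that of Itgb7. Of the 37 chains, 23 were in the promoter table.

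Levels between chains were compared per length, as CPM per kilobase of exon (mean ± SD over 6 libraries). Itgb1, the beta chain shared by the fibronectin, collagen and most laminin receptors, was highest at 286 ± 39.0. Itgb5, which pairs with the alphav chain in a vitronectin receptor, was next at 49.9 ± 6.15, and Itgb7, a beta chain known from lymphocytes, was at 8.06 ± 5.64. Among alpha chains Itga5, the fibronectin receptor chain, was at 51.9 ± 29.8, Itgav at 24.8 ± 12.2 and the laminin receptor chain Itga3 at 15.0 ± 3.80. Itga11, a collagen receptor chain of fibroblasts, followed at 2.86 ± 2.74, the laminin receptor chains Itga7 and Itga6 at 2.25 ± 0.472 and 1.86 ± 0.220, and the other reported alpha chains were below 0.5. Itga5 was above Itgav in each library, while the spreads of Itga11, Itga7 and Itga6 overlapped. With the length of the longest transcript in place of all exons the order of these last chains turned. Itga7 was then at 4.53, Itga6 at 3.90 and Itga11 at 2.95.

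Among laminin chains, Lamc1, the gamma chain of most laminins, was at 31.5 ± 7.98 CPM per kb, Lamb2 at 30.3 ± 15.1, Lamb1 at 28.6 ± 9.38 and Lama5 at 16.7 ± 8.64. Lamb1 and Lamb2 differed by less than their spread, and with the length of the longest transcript in place of all exons their order turned, at 49.1 for Lamb1 and 32.8 for Lamb2. By that length Lamb1 was also above Lamc1, at 34.2. Lama4, an alpha chain of vessels and mesenchyme, was at 0.474 ± 0.153 and Lama2, the alpha chain of muscle and nerve, at 0.131 ± 0.0476. The epithelial chain Lamb3 was among the least expressed reported chains, and the epithelial alpha chain Lama3 missed the count rule.

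**Figure D1:**
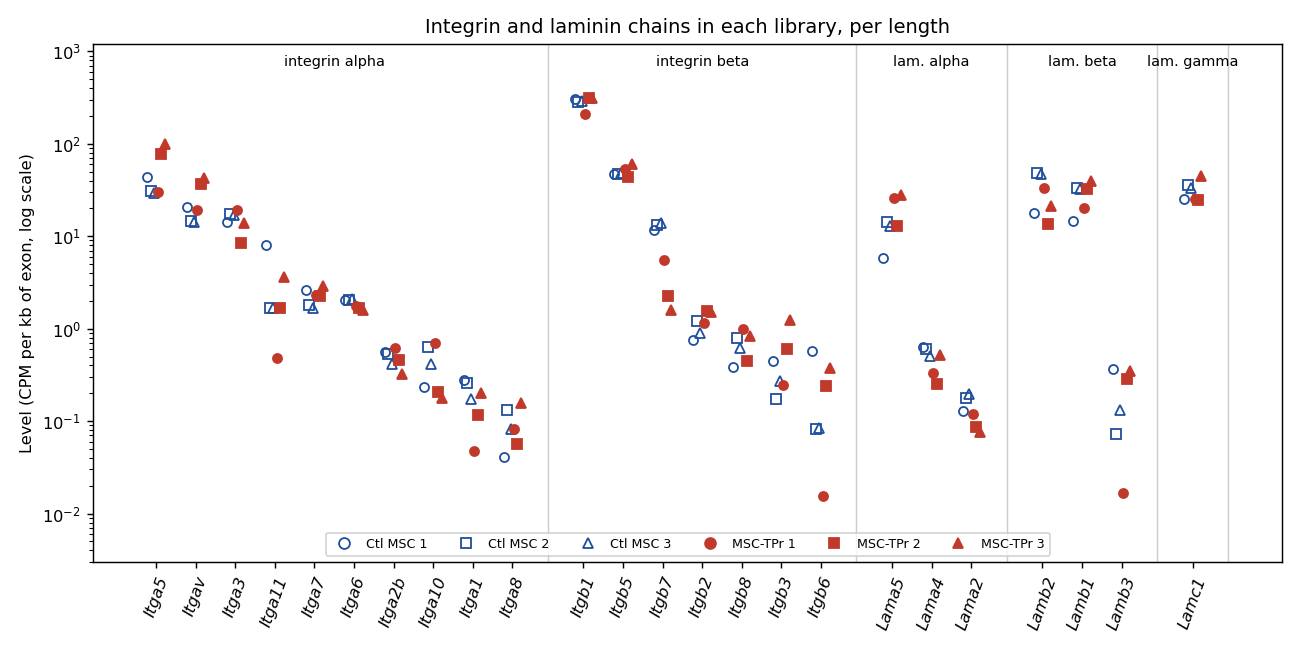
Level of the chains described in the text in every library, as CPM per kb of exon on a log axis, ordered within each chain class by the mean. Open blue symbols are libraries labelled Ctl MSC, filled red symbols those labelled MSC-TPr, and the shape gives the library number. Itgb1 stands highest, and Itgb7 is the chain of middle level at which all 3 red symbols lie well below the blue ones.

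Between the labels, no reported chain was called. Calls needed an adjusted p (edgeR, quasi-likelihood, adjusted by Benjamini-Hochberg across the 11974 tested genes) below 0.05, with a log2 difference whose size reached 0.5. Of the 25 chains 0 passed, where 0.426% of all genes did, and the smallest adjusted p was 0.140. At an unadjusted p under 0.05 there were 4 chains, 16% against 15.0% of all genes (Itgav, Itgb7, Lama2 and Lama5). DESeq2 called 1 of the 25, Itgb7, where it called 5.28% of all genes. The log2 fold change, MSC-TPr over Ctl MSC, ranged from −2.07 to 1.22, was above 0 for 12 chains and below 0 for 13, and had a median of −0.07 beside 0.01 over all genes tested. In 3 chains (12%) every library labelled MSC-TPr was below every library labelled Ctl MSC, and in none the reverse, where 22.6% of all genes did not overlap in one or the other direction. These shares of the 25 chains were near or below those of all genes.

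**Figure D2:**
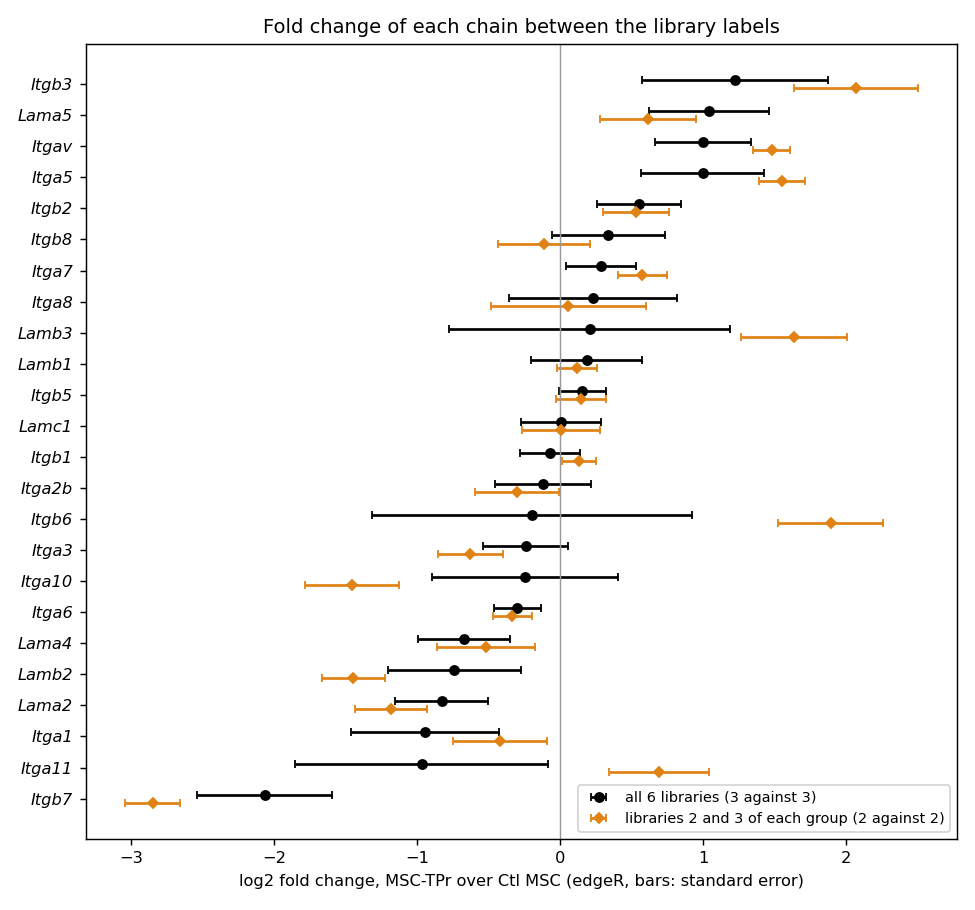
Log2 fold change of the chains described in the text, MSC-TPr over Ctl MSC, with its standard error from edgeR. Black circles use all 6 libraries and orange diamonds libraries 2 and 3 of each label. The circles run from −2.07 for Itgb7 to 1.22 for Itgb3, and the diamonds of Itga11, Itgb1, Itgb6 and Itgb8 lie on the other side of 0 from their circles.

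The largest difference in size was that of Itgb7, which forms leukocyte integrins with the alpha4 chain (Itga4) and the alphaE chain (Itgae). It had 535, 693 and 703 counts in the libraries labelled Ctl MSC, or 32.3, 37.0 and 38.8 CPM. In those labelled MSC-TPr it had 275, 105 and 94 counts, or 15.2, 6.21 and 4.36 CPM. The groups did not overlap, and MSC-TPr 1, low in cell division RNA, lay between the controls and the other two. The log2 fold change was −2.07 (SE 0.471), a 4.19-fold lower level, with an adjusted p of 0.140 in edgeR, and −2.05 with an adjusted p of 0.00147 in DESeq2. Leaving out 1 library at a time gave −2.77 to −1.74, with adjusted p from 0.0432 to 0.462, the lowest without MSC-TPr 1. With the cell division level as a covariate the value was −1.95 (adjusted p = 0.00637), and between libraries 2 and 3 it was −2.85 (SE 0.193, adjusted p = 0.000277).

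The partners of the beta7 chain had few counts. The floor, the level of 3 counts, was 0.139 to 0.181 CPM. Itga4 had 9, 5 and 13 counts in libraries labelled Ctl MSC, above the floor. It had 1, 3 and 3 in those labelled MSC-TPr, at or below the floor and without overlap. Itga4 had at most 0.717 CPM and Itgae at most 0.181 CPM in any library. Per length, Itgb7 was at 1.57 to 14.0 CPM per kb, Itga4 at most at 0.0513 and Itgae at most at 0.0396. Of the haematopoietic markers Ptprc, the pan-leukocyte gene CD45, had at most 2 counts in any library, below the floor. Itgb7 lies on chr15:102215995-102231944 on the minus strand (GRCm38).

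Itga6, an alpha chain of laminin receptors, varied little within each label. It was at 18.5, 18.4 and 18.9 CPM in libraries labelled Ctl MSC and at 15.7, 15.3 and 14.2 in those labelled MSC-TPr. The groups did not overlap, at 18.6 ± 0.257 and 15.1 ± 0.759 CPM (SD, n = 3 each), and the cell division level did not order the libraries. It differed by a log2 fold change of −0.30 (SE 0.163, adjusted p = 0.441), and −0.33 (SE 0.134, adjusted p = 0.0869) between libraries 2 and 3. The gene is on chr2:71745616-71858416, plus strand.

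Lama2 was the third chain without overlap, at a low level. It was at 2.11, 2.88 and 3.20 CPM (35, 54 and 58 counts) in libraries labelled Ctl MSC and at 1.94, 1.42 and 1.25 CPM (35, 24 and 27 counts) in those labelled MSC-TPr. Ctl MSC 1 and MSC-TPr 1 had the same count, so the separation there rests on the library scaling. Its log2 fold change was −0.83 (SE 0.325, adjusted p = 0.305), and −1.19 (SE 0.252, adjusted p = 0.0121) between libraries 2 and 3. The gene is on chr10:26980036-27619758, minus strand.

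The fibronectin receptor chain Itga5 was high in MSC-TPr 2 and 3. It was at 215, 153 and 146 CPM in libraries labelled Ctl MSC and at 150, 378 and 496 in those labelled MSC-TPr. The groups overlapped through MSC-TPr 1, and the 3 libraries with the most cell division RNA held its 3 highest values. The log2 difference was 1.0 (SE 0.431, adjusted p = 0.341), 1.55 (SE 0.162, adjusted p = 0.00111) between libraries 2 and 3, and 0.52 (adjusted p = 0.192) with the cell division covariate. The gene is on chr15:103344286-103366763, minus strand.

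Itgav encodes the alphav chain, which pairs with 5 beta chains (beta1, beta3, beta5, beta6 and beta8) in receptors for vitronectin and latent TGF-beta. It was at 224, 156 and 153 CPM in libraries labelled Ctl MSC and at 205, 399 and 463 in those labelled MSC-TPr. Ctl MSC 1 was above MSC-TPr 1, so the groups overlapped, and again the 3 highest libraries were those with the most cell division RNA. The log2 value was 1.0 (SE 0.333, adjusted p = 0.246), 1.48 (SE 0.129, adjusted p = 0.000619) between libraries 2 and 3, and 0.68 (adjusted p = 0.0340) with the cell division level as a covariate. Of its exons on chr2:83724397-83806916 (plus strand), 5.9% overlap the antisense gene Gm13684, and whether counting used strand was not given in the sources used here.

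The alphav partner chains had unlike patterns. Itgb5 was at 165, 168 and 170 CPM against 187, 156 and 217, an overlap with a log2 fold change of 0.16 (SE 0.163, adjusted p = 0.706, chr16:33829665-33949338, plus strand). The next 3 were chosen after their values were seen. Itgb3, known from osteoclasts and platelets, was at 2.66, 1.01 and 1.60 CPM against 1.44, 3.55 and 7.28, with a log2 fold change of 1.22, 2.07 between libraries 2 and 3, where it was called, 0.65 with the cell division covariate and 0.51 without MSC-TPr 3. Itgb6, a chain of epithelia, was at 4.05, 0.587 and 0.607 CPM against 0.111, 1.72 and 2.69, so its value turned from −0.20 over all libraries to 1.89 without the libraries numbered 1. Itgb8, which with alphav activates latent TGF-beta, was at 4.29, 8.87 and 6.78 CPM against 10.9, 4.97 and 9.32.

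Itgb1, the shared beta chain, differed little. It was at 1253, 1165 and 1176 CPM in libraries labelled Ctl MSC and at 860, 1277 and 1281 in those labelled MSC-TPr. MSC-TPr 1 was the lowest library, and the groups overlapped. Between the labels the value was −0.07 on the log2 scale (SE 0.207, adjusted p = 0.899), and 0.13 between libraries 2 and 3 (chr8:128685654-128733200, plus strand).

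Among laminin and collagen receptor chains, Itga3 was at 82.4, 99.3 and 97.6 CPM against 109, 48.2 and 78.8. The groups overlapped, and MSC-TPr 1 was the highest library. Its log2 fold change was −0.24 (SE 0.297, adjusted p = 0.755), and −0.63 (SE 0.229, adjusted p = 0.0666) between libraries 2 and 3 (chr11:95044474-95076801, minus strand). Itga11, chosen after its values were seen, was at 41.3, 8.49 and 8.55 CPM against 2.49, 8.64 and 18.6, and its log2 fold change of −0.97 turned to 0.69 without the libraries numbered 1 and was −1.66 (adjusted p = 0.0117) with the cell division covariate. The collagen receptor chain Itga1 had −0.95 and Itga10 −0.25, the latter uncertain because 33.5% of its exons are shared with Gm42957 on the same strand. The platelet chain Itga2b had −0.12, the muscle laminin receptor chain Itga7 0.29, the nephronectin receptor chain Itga8 0.23 and the leukocyte chain Itgb2 0.55.

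Of the main laminin alpha chain, Lama5, libraries labelled Ctl MSC had 66.3, 161 and 146 CPM and those labelled MSC-TPr 298, 149 and 320. MSC-TPr 2 lay between Ctl MSC 2 and 3, so the groups overlapped, and the cell division level did not order the libraries. The log2 fold change was 1.04 (SE 0.420, adjusted p = 0.318), 0.62 (SE 0.335, adjusted p = 0.178) between libraries 2 and 3, and 1.39 (adjusted p = 0.0324) with the cell division level as a covariate (chr2:180176373-180225859, minus strand). Lama4 was at 7.67, 7.26 and 6.18 CPM against 3.99, 3.02 and 6.22. Its groups overlapped only through MSC-TPr 3, and the log2 fold change was −0.67 (SE 0.320, adjusted p = 0.385, chr10:38965515-39110188, plus strand).

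The 2 main laminin beta chains had different orders. Lamb2, the beta chain of synapses, kidney and vessel walls, was at 109, 297 and 287 CPM in libraries labelled Ctl MSC and at 201, 83.1 and 131 in those labelled MSC-TPr. Its 3 lowest values were in the 3 libraries with the most cell division RNA, and the groups overlapped. Its log2 fold change was −0.74 (SE 0.467, adjusted p = 0.509), and −1.45 (SE 0.219, adjusted p = 0.00383) between libraries 2 and 3 (chr9:108479736-108490530, plus strand). Lamb1, the more widespread beta chain, was at 143, 329 and 325 CPM against 199, 318 and 390, with both libraries numbered 1 lowest and a log2 fold change of 0.18 (SE 0.388, adjusted p = 0.860, chr12:31265234-31329644, plus strand).

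Per length, Lamb2 made up 54.7%, 59.5% and 58.9% of laminin beta RNA in libraries labelled Ctl MSC, and 62.3%, 29.7% and 35.1% in those labelled MSC-TPr. MSC-TPr 1 thus stood with the controls. Lama5 made up 87.6% to 98.1% of laminin alpha RNA, Itgb1 77.6% to 86.4% of integrin beta RNA and Itga5 40.7% to 60.3% of integrin alpha RNA.

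Lamc1 was at 210, 294 and 277 CPM in libraries labelled Ctl MSC and at 212, 202 and 370 in those labelled MSC-TPr. MSC-TPr 3 was above every control, and MSC-TPr 1 and 2 were near the lowest one. Between the labels the log2 fold change was 0.01 (SE 0.282, adjusted p = 0.995, chr1:153218922-153332786, minus strand). The epithelial chain Lamb3 had a log2 fold change of 0.21.

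**Figure D3:**
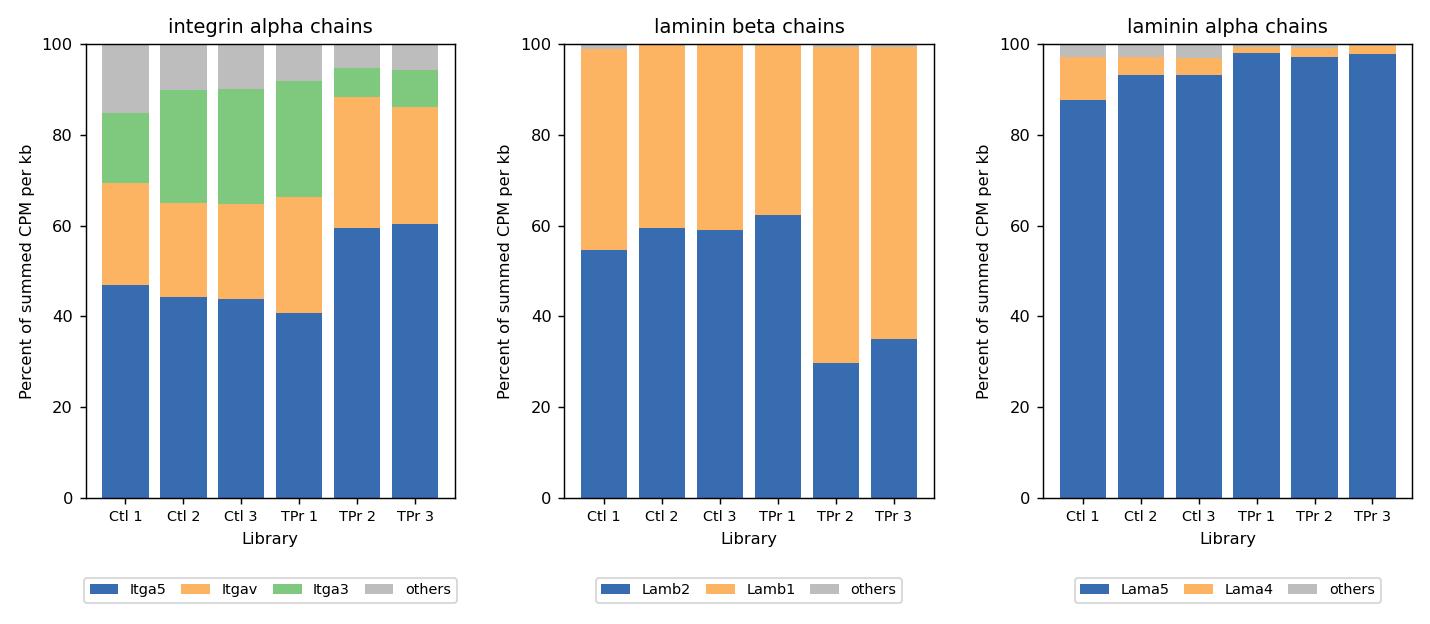
Share of the summed CPM per kb that each main chain made up in each library, for integrin alpha, laminin beta and laminin alpha chains. Bars add up to 100%. Lamb2 makes up 29.7% and 35.1% of the beta chains in MSC-TPr 2 and 3 and 54.7% to 62.3% in the other libraries, and Lama5 makes up at least 87.6% of the alpha chains throughout.

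Between libraries 2 and 3 of each label 10 of 25 chains (40.0%) were called by edgeR, as were 40.0% of all genes. Higher in MSC-TPr 2 and 3 were 6, Itga5, Itga7, Itgav, Itgb3, Itgb6 and Lamb3, where 20.6% of all genes were higher. Lower were 4, Itga10, Itgb7, Lama2 and Lamb2, where 19.4% of all genes were lower. With the cell division level as a covariate over all 6 libraries 4 of 25 (16%) were called, beside 12.2% of all genes. Itgav and Lama5 were higher, as were 4.79% of all genes, and Itga11 and Itgb7 lower, as were 7.41%. Itgb7 was the 1 chain called without MSC-TPr 1, where 0.359% of all genes were called.

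The order of the libraries by cell division RNA was as common among the chains as among other genes. In 11 of 25 chains (44.0%) Ctl MSC 1, MSC-TPr 2 and MSC-TPr 3 held the 3 highest or the 3 lowest values, where this held for 44.7% of all genes. They held the highest values in 8 (Itga5, Itga11, Itgav, Itgb1, Itgb3, Itgb6 and Lamb3 among them) and the lowest in 3 (Itga3, Itga10 and Lamb2). For Itga11 this rests on the library scaling, as MSC-TPr 2 had 146 counts and Ctl MSC 2 and 3 had 159 and 155.

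**Figure D4:**
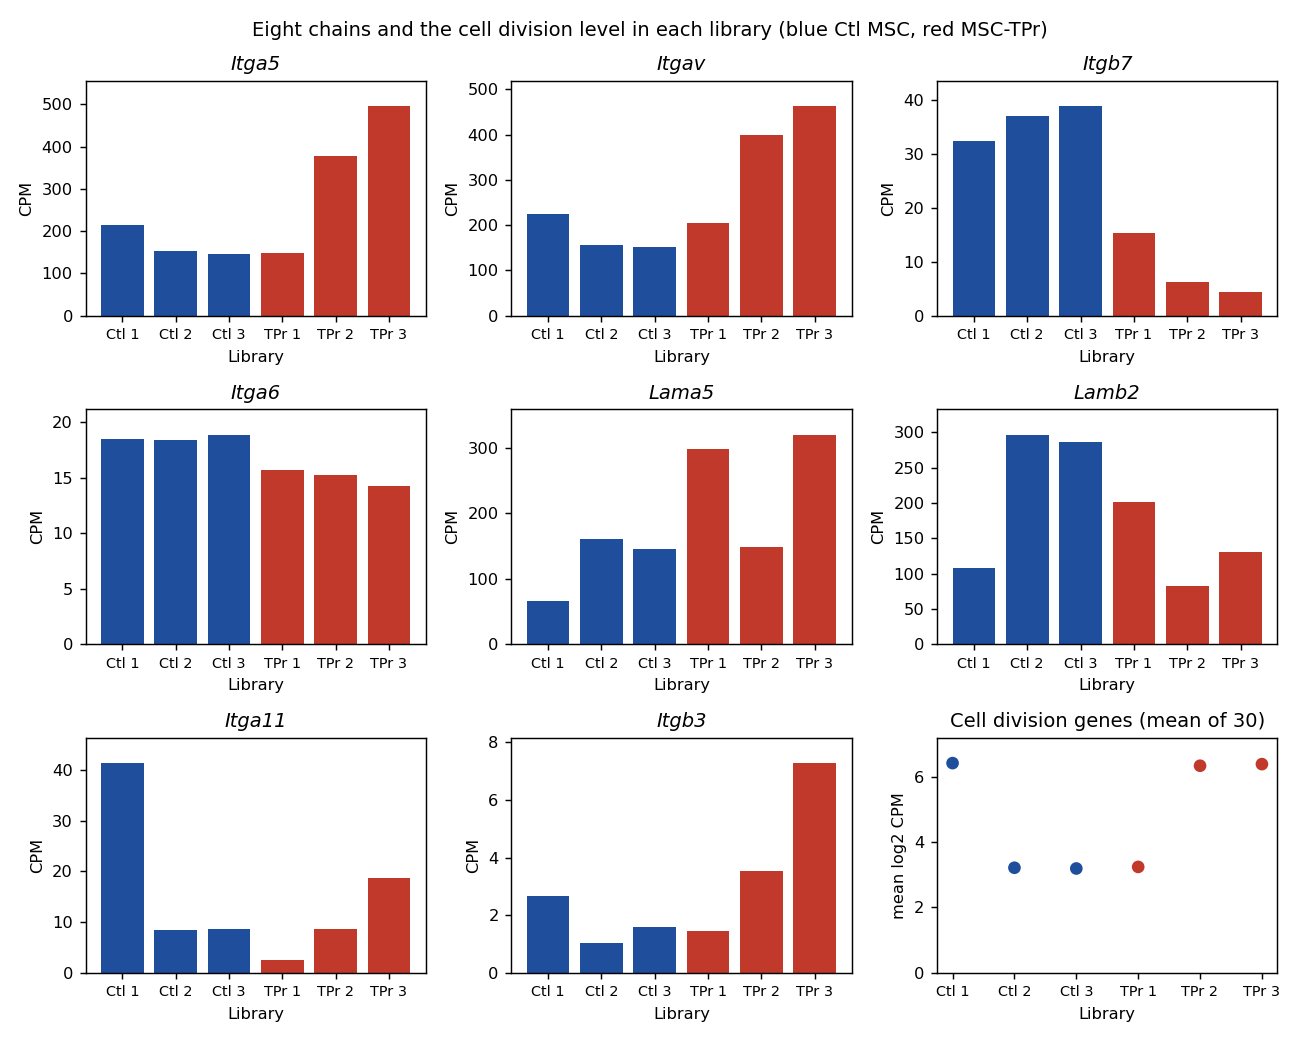
Level in CPM of 8 chains in each library (bars, from 0) and, in the last panel, the mean over 30 cell division genes in log2 CPM (points). Blue marks libraries labelled Ctl MSC and red those labelled MSC-TPr. Itgb7 and Itga6 separate the labels, Itga5, Itgav, Itga11 and Itgb3 have their 3 highest values, and Lamb2 its 3 lowest, in the 3 libraries with the most cell division RNA, and Lama5 does neither. For Itga11 the margin is narrow and rests on the library scaling.

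The other genes of the pathway were taken as 3 lists, none of which had a call in edgeR's test over all 6 libraries without a covariate. DESeq2 called 1 activator or adaptor and 1 basement membrane partner, where it called 5.28% of all genes. With the cell division covariate edgeR called 2 of each list, where 12.2% of all genes were called. In the same libraries 15.0% of all genes had an unadjusted p under 0.05, 22.6% did not overlap between the labels, and between libraries 2 and 3 20.6% were called higher and 19.4% lower. Of 34 tested activators, adaptors and signalling proteins, which couple integrin tails to actin, 7 had an unadjusted p under 0.05, and the median log2 fold change was 0.21. There 5 were higher and 4 lower without overlap. Chosen after their values were seen, the higher ones included the adaptor Bcar1, at 66.9, 83.8 and 85.1 CPM against 112, 117 and 132 (log2 fold change 0.61, adjusted p = 0.182). The lower ones included Cd47, the integrin-associated protein, at 60.6, 77.2 and 80.9 CPM against 50.8, 44.4 and 46.6 (log2 fold change −0.63, adjusted p = 0.183), and, at few counts, Fermt3, the kindlin of blood cells, at −1.05 and the parvin Parvg at −0.89. Between libraries 2 and 3, 14 of the 34 were called higher and 1 lower.

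Of 17 tested integrin ligands other than laminins, 1 had an unadjusted p under 0.05 and the median was 0.03. The one without overlap was Fbn1, the microfibril protein fibrillin, at 108, 109 and 95.9 CPM against 110, 276 and 488 (log2 fold change 1.49, adjusted p = 0.246). MSC-TPr 1 lay next to the controls. Between libraries 2 and 3, 9 of the 17 were called higher and 2 lower, where 20.6% of all genes were higher and 19.4% lower.

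Of 19 tested basement membrane partners and other laminin receptors, 2 had an unadjusted p under 0.05 and the median was −0.05. Agrn, the laminin-binding proteoglycan agrin, was at 53.4, 116 and 105 CPM against 43.7, 15.4 and 25.2, without overlap (log2 fold change −1.70, adjusted p = 0.183). The laminin receptor dystroglycan, Dag1, was lower at −0.48 and the sarcoglycan Sgce higher at 0.43, both without overlap and with adjusted p of 0.429 and 0.257. Between libraries 2 and 3, 6 of the 19 were called higher and 5 lower, beside 20.6% and 19.4% of all genes.

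The remaining 12 chains missed the count rule and did not pass edgeR's filter over all 6 libraries. They had at most 48 counts in any library, and 4 had at most 5 in every one. Itga8 was just inside the rule, with 5, 18 and 11 counts in libraries labelled Ctl MSC and 11, 7 and 25 in those labelled MSC-TPr. Just outside were the epithelial chain Lama3 (5, 15 and 4 against 7, 7 and 10 counts), the embryonic laminin chain Lama1 (5, 31 and 36 against 3, 0 and 0) and the leukocyte chain Itgal (5, 3 and 4 against 0, 22 and 48). Lama1, which DESeq2 tests at such counts, was called lower there (adjusted p = 0.0171), where 5.28% of all genes were called. Only Ctl MSC 2 and 3 had more than 5 counts of Lama1, so the call rests on them. Lama1 and Itga4 were lower and the gamma chain Lamc3 higher (0 in each control against 1, 9 and 5 counts) without overlap. These were 3 of the 12 chains, where 22.6% of all tested genes did not overlap. In each of the 3, every library of the lower label was at or below the floor of 3 counts. Lamc3 was below it in MSC-TPr 1 as well. The others were the collagen receptor chain Itga2, the tenascin receptor chain Itga9, the leukocyte chains Itgad, Itgae, Itgam and Itgax, and Itgb4, the beta chain of hemidesmosomes.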

How the data were processed

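RNA of 6 libraries, 3 per label, was read by paired-end sequencing of stranded polyA libraries. The deposited values are raw counts per gene. The authors made them with Htseq-count on mm10 alignments, and the submitters' processing notes name CASAVA 1.8.2, Trimmomatic 0.35 and TopHat2 2.1.0. Annotation and strand setting of the counting are not given in the sources used here. Rows that name no gene held the remaining listed reads, with 79.2% to 86.2% on genes, and were left out.

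Here edgeR 4.0.16 in R 4.3.3 was fitted to all genes (TMM, filterByExpr, quasi-likelihood test), leaving 11974, with DESeq2 1.42.0 as an alternative. The standard error is the log2 fold change over the square root of F. Exon lengths and coordinates came from GENCODE M21 (GRCm38), where 37 of 37 symbols matched. Data were also simulated for the comparison of all 6 libraries, at a dispersion of 0.1. There edgeR recovered 195 of 200 changed genes, with 10 false calls in 12019 genes, and DESeq2 194, with 30 in 16318. Recovery of differences of the size and level seen in the chains was not tested. The fitted common dispersion was 0.124. The members, lists, comparisons and the doubt about the libraries numbered 1 were chosen with earlier results of these data known. Full values are given for chains called or without overlap and for the 3 with the highest levels per length in each class, taking laminin beta and gamma together. Of each pathway list, up to 3 genes without overlap are named, those with the largest changes, and Bcar1 was added after its values were seen. Ctl MSC 2 and 3 were the least different pair (chi-square of 4.97 per gene, where sampling noise alone gives about 1, and 52.3 to 216 for other pairs). All 6 libraries were counted separately, although this does not show separate cultures. One chain is counted among the reported chains but is not reported here.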

Additional observations from a re-analysis of the deposited data

How the results depend on the processing

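Over the other settings, the 0 called chains became 1 with DESeq2, 4 with the cell division covariate, 10 with libraries 2 and 3 of each label, and 0 to 1 when 1 library was left out. The 51 called genes of the whole table became 683 with DESeq2, 31 with at least 10 counts in every library, 1461 with the covariate, 4854 with libraries 2 and 3, and 0 to 108 with 1 library left out. The correlation of deviations from the group mean was −0.654 on average between same-numbered libraries. The libraries numbered 1 stand apart from the others of their label in cell division RNA, in opposite directions. The correlation therefore cannot show whether replicate numbers pair the libraries. With these numbers as a replicate block 0 chains and 0 genes were called. Chains without overlap rose from 3 to 10 without MSC-TPr 1, and to 5 or 6 with any other library left out. Fewer libraries separate more easily, the share over all genes was not computed for these settings, and the cause of the rise was not tested. For the lists, the 0 calls became 1 with DESeq2, 2 with the covariate and 15 with libraries 2 and 3 among activators and adaptors, 2 with the covariate and 11 with libraries 2 and 3 among ligands, and 1, 2 and 11 among basement membrane partners.

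Of 333 alternative values for single chains 290 kept their direction and call, 15 became calls and 28 turned direction (1 of these, Itgb6 with libraries 2 and 3, was also a call), and 13 chains turned under none, Itga5, Itgav, Itgb7, Lama2, Lama5 and Lamb2 among them. Values that turned were, with libraries 2 and 3, Itga11 0.69, Itgb1 0.13, Itgb6 1.89 and Itgb8 −0.12, with the covariate Itga10 0.14 and Lamb3 −0.70, with the replicate block Itgb6 0.23 and Lamc1 −0.037, and for Lamc1 also −0.0081 with the stricter count filter and −0.039 with upper quartile scaling. With 1 library left out the ranges that crossed 0 were −0.38 to 0.093 for Itga2b, −0.55 to 0.020 for Itga3, −0.28 to 0.68 for Itga8, −1.16 to 0.16 for Itga10, −1.80 to 0.22 for Itga11, −0.16 to 0.10 for Itgb1, −0.92 to 1.34 for Itgb6, −0.11 to 0.41 for Lamb1, −0.32 to 1.08 for Lamb3 and −0.33 to 0.16 for Lamc1. The causes were not tested. The 12 chains below the count rule did not pass edgeR's filter over all 6 libraries.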

Other observations

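Per length, the Itgav to Itgb1 ratio was 0.0680, 0.0510 and 0.0494 in libraries labelled Ctl MSC and 0.0905, 0.119 and 0.137 in those labelled MSC-TPr, without overlap. The Lama5 to Lamc1 ratio was 0.229, 0.397 and 0.382 against 1.02, 0.535 and 0.627, also without overlap. The Lamb2 to Lamb1 ratio was 1.24, 1.47 and 1.44 against 1.65, 0.427 and 0.546, with overlap. For Itga5 to Itgb1 it was 0.142, 0.108 and 0.103 against 0.144, 0.245 and 0.320, without overlap by a narrow margin. Itgav to Itgb5 gave 0.4485, 0.309 and 0.297 against 0.362, 0.844 and 0.705, with overlap. Itgb7 to the sum of Itga4 and Itgae gave 149, 434 and 186 against 343, 87.6 and 52.1, with overlap. Shares over all genes were not computed for ratios. These ratios were chosen with the levels known and were not tested.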
